A study of Homo sapiens with 8 samples.

Results

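PLAU, PLAT, PLAUR and SERPINE2, 4 genes of the plasminogen activation system, were examined across the M1, M2, M3 and M4 cell lines of an MCF10A-derived model of breast cancer progression. They make up 4 of the 56632 genes in the count table, of which 29502 had a count above 0 in at least 1 library. They were listed by name with their levels in these 8 libraries already known, so their levels and fold changes are given below as a description, without p-values. PLAU, which encodes the urokinase-type activator, was high in M4. PLAT, which encodes the tissue-type activator, was low in M4. PLAUR, the urokinase receptor, was higher in M2 than in M1 and higher again in M3 and M4. SERPINE2, an inhibitor of both activators, was low in M1 and higher in the other lines.

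Plasminogen is an inactive protease made mainly by the liver, and the urokinase-type and tissue-type activators cleave it to plasmin, which degrades fibrin and many proteins of the extracellular matrix. The urokinase receptor, a GPI-anchored protein, holds urokinase at the cell surface, while tissue-type activator binds fibrin and annexin A2. Inhibitors of the serpin family, among them protease nexin-1 encoded by SERPINE2, form covalent complexes with the activators. Urokinase and its receptor have long been studied in the invasion and metastasis of breast cancer.

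The data were RNA-seq of poly A+ RNA from 4 lines with 2 biological replicates each. M1 is MCF10A, a spontaneously immortalized, non-tumorigenic line of human mammary epithelium. M2, MCF10AT1k.cl2, is MCF10A carrying activated T24-HRAS and selected by growth as a xenograft. M3, MCF10Ca1h, and M4, MCF10CA1a.cl1, came from carcinomas that arose in xenografts of M2, so that they also descend from the T24-HRAS cells; M3 forms well-differentiated, low-grade carcinomas, and M4 forms undifferentiated ones and colonizes the lung. Each stage of the model is 1 line, and the replicates are cultures of that line. All lines were grown as 3D acini in growth factor-reduced Matrigel for 8 days, in DMEM/F12 with 2% horse serum, hydrocortisone, cholera toxin, insulin, penicillin and streptomycin. EGF was added at 10 ng/ml to M1 and M2 and was omitted from M3 and M4. Comparisons of M3 or M4 with M1 or M2 are therefore also comparisons of medium without and with EGF, and line and EGF cannot be told apart in them, whereas M2 against M1 and M4 against M3 were each made in the same medium.

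Total counts ran from 69669970 to 107350344 per library, with a median of 84947231. The replicates of M2 were much closer to each other, with a biological coefficient of variation over all genes of 0.0574, than those of M1 (0.377), M3 (0.307) and M4 (0.271), and the shared estimate of spread leans on the M2 pair. An expression table published with the study assigns 2 of the 8 libraries, M1 replicate 2 and M2 replicate 1, to the other of these lines; the sample labels are followed here, and the values under the exchanged assignment are given beside the calls that it ended. HRAS was measured at 154 and 139 CPM (a count scaled to the size of its library) for the M1 libraries, 160 and 153 for M2, 269 and 327 for M3 and 335 and 352 for M4. Counts per gene do not separate the T24 allele from the normal one, and HRAS was not called in M2 against M1 (edgeR adjusted p = 0.736). It was called higher in M3 and M4 against M1 (edgeR adjusted p = 0.0038 and 0.00119), where EGF also differs. The call in M4 held in all 14 alternatives and that in M3 in 11. The latter was lost without M1 replicate 2 (0.96) or M3 replicate 2 (0.88) and under the exchanged assignment (0.93). The 4 markers of basal mammary epithelium, KRT5, KRT14, KRT17 and TP63, had a count in every line, with summed levels of 4997 to 13326 CPM. The summed level of 5 fibroblast markers was 9.33 to 60.2 CPM for M1, 72.7 to 74.7 for M2, 10.1 to 16.0 for M3 and 6.43 to 7.57 for M4, with COL1A2 at 0 in every library. That of 3 leukocyte markers was 4.06 to 9.55 CPM for M1, 5.83 to 6.12 for M2, 6.20 to 25.1 for M3 and 39.0 to 51.4 for M4, with CD3E at 0 in every library and PTPRC at 0 in M2, M3 and M4; endothelial markers, of which 2 of 3 were in the table, summed to at most 0.326 CPM. The part of other cell types in the levels below was not tested.

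PLAU (ENSG00000122861) lies on the plus strand of chromosome 10 at chr10:75668935-75677254 (GRCh37), and its canonical transcript has 11 exons. PLAUR (ENSG00000011422) lies on the minus strand at chr19:44150247-44174699, with 7 exons in its canonical transcript. Stretches from the 250 bases upstream of their start sites are shown because both genes are known targets of factors of the AP-1, ETS and Sp1 families. Genes of these families are followed in the same libraries. They were taken from the RefSeq promoter table (GRCh38.p14) and placed on GRCh37 by an exact and single match. The stretch of PLAU is chr10:75670640-75670861 on the plus strand, and its capitals mark 1 PEA3-type ETS motif (AGGAAG) followed by 3 Sp1 motifs (GGGCGG). The stretch of PLAUR is chr19:44174490-44174518 on the minus strand, and its capitals mark 1 AP-1 motif (TGANTCA).
PLAU: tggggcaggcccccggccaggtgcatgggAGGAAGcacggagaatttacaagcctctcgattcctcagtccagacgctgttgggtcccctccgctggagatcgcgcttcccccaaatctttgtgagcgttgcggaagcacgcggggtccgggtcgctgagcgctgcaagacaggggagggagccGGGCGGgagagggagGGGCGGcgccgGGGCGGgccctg
PLAUR: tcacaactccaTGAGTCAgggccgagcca
Searched on both strands, the 250 bases upstream of a start site held the AP-1 motif in 6.57% of 35116 RefSeq promoter windows, the Sp1 motif in 42.6% and the PEA3 motif in 28.7%. The window of PLAUR also held 1 PEA3 motif, 15 bases upstream of the start site and outside the stretch shown, and 0 Sp1 motifs. That of PLAU held 0 AP-1 motifs. The window of another PLAU start site, at chr10:75670368, held 0 of each motif. The 3 motifs do not overlap in the stretches shown, and a match describes letters and not a bound site.

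PLAU was measured in M1 at 17.3 and 48.2 CPM, in M2 at 42.3 and 39.96, in M3 at 32.2 and 30.3 and in M4 at 217 and 190.0. Both libraries of M4 stood above every other library, the lower of them 3.94-fold above the next, M1 replicate 2. The levels of M3, M1 and M2, in rising order of their means, differed little, since M1 overlapped both of its neighbours. The fitted log2 fold change of M4 was 2.64 ± 0.42 (SE) over M1, 2.31 ± 0.41 over M2 and 2.70 ± 0.42 over M3, the last at the same EGF. Those of M2 and M3 over M1 were 0.33 ± 0.39 and -0.07 ± 0.39. Ranked by RPKM, the CPM per kilobase of the canonical transcript, PLAU was at the 95.6 and 95.1 percentile of 17460 genes in M4 and between the 64.3 and 82.6 percentile in the other libraries. Bulk RNA does not tell fewer cells of a kind from less RNA per cell, and this holds for every level given here.

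A gene on the opposite strand overlaps PLAU. C10orf55 (ENSG00000222047), a lncRNA at chr10:75669727-75682535, shares 915 bases of exon with PLAU, and the use of strand in the counting is not stated. Its counts were 83 and 120 for M1, 154 and 89 for M2, 63 and 70 for M3 and 237 and 184 for M4, which is 0.964% to 5.80% of the PLAU count of the same library. C10orf55 rose with PLAU in M4 over M3, by a log2 fold change of 1.47 (edgeR adjusted p = 0.0306), a call held in 6 of 14 alternatives, with an adjusted p of up to 0.107. It was lost without any 1 library of M2, M3 or M4 and when M3 and M4 alone were fitted (0.0593). The exchanged assignment, with a log2 fold change of 1.47, also ended it. Without strand its reads and those of PLAU cannot be told apart.

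PLAT (ENSG00000104368) lies on the minus strand at chr8:42032236-42065227 (GRCh37), with 14 exons in its canonical transcript. It was measured in M1 at 58.0 and 276 CPM, in M2 at 144 and 145, in M3 at 281 and 668 and in M4 at 20.2 and 41.5. Both libraries of M4 were below all others, and both of M3 were above all others. M3 was set apart from M1 by a factor of no more than 1.02 between their nearest libraries, and M2 lay within the range of M1. The replicates of M1 differed more than the means of M1 and M2 did, which shows in the standard errors. The log2 fold change of M4 was -2.44 ± 0.75 against M1, -2.23 ± 0.75 against M2 and -3.94 ± 0.80 against M3. The change against M2 did not meet the criteria for a call, though it did so in 7 of 14 alternatives. The log2 fold change of M3 was 1.51 ± 0.73 over M1 and 1.72 ± 0.73 over M2, neither of which met the criteria for a call.

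**Figure D1:**
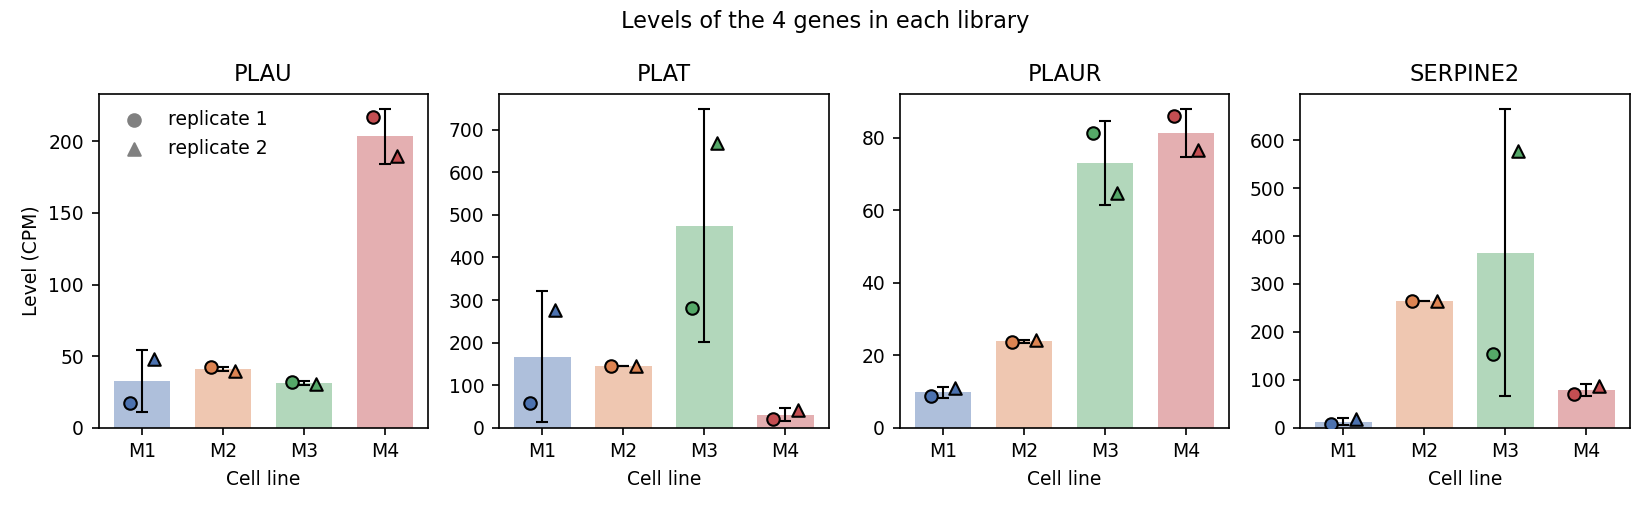
Level of PLAU, PLAT, PLAUR and SERPINE2 in each library (CPM) by cell line. Symbols are the 2 replicates, bars the mean of each line and error bars its SD. PLAU was highest and PLAT lowest in both libraries of M4, PLAUR was lowest in M1 and highest in M3 and M4, and SERPINE2 was lowest in M1.

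Set side by side per length, the activators made opposite contributions in M3 and M4. PLAU gave 28.0% and 18.6% of the summed RPKM of PLAU and PLAT for M1, 27.7% and 26.5% for M2, 13.0% and 5.61% for M3, and 93.3% and 85.7% for M4. PLAT was thus the more abundant activator transcript in every library of M1, M2 and M3, and PLAU in both of M4. The summed level of the activators was 26.3 and 111 RPKM for M1, 65.2 and 64.3 for M2, 106 and 231 for M3, and 99.1 and 94.6 for M4. The sums of M4 lay inside the range of M1.

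**Figure D2:**
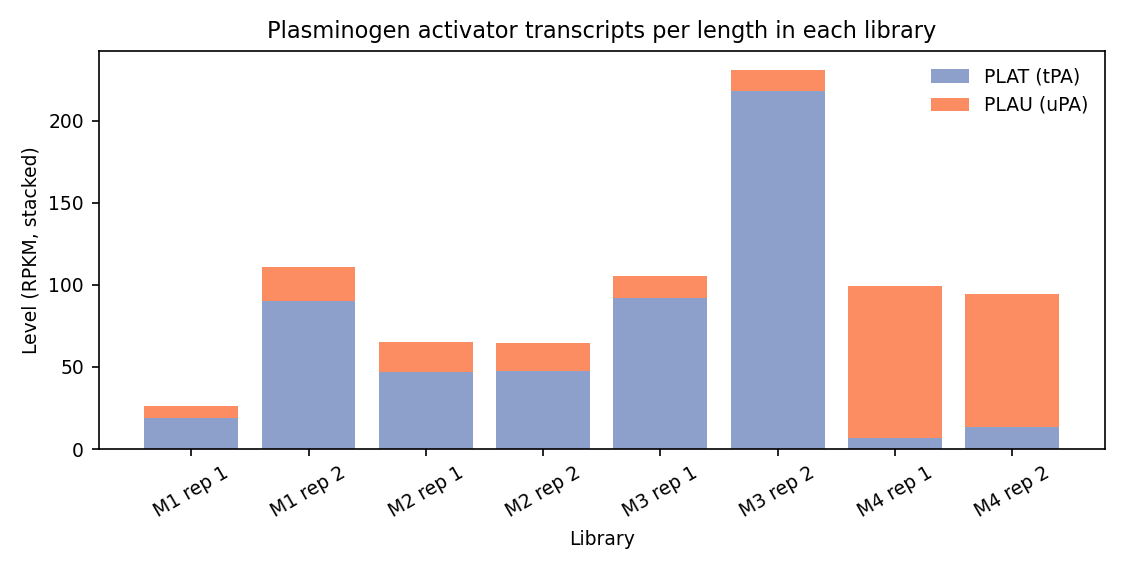
Level per length (RPKM) of PLAU and PLAT, stacked, in each of the 8 libraries. PLAU made up 93.3% and 85.7% of the bar in the libraries of M4 and at most 28.0% in those of the other lines.

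PLAUR was measured in M1 at 8.77 and 10.9 CPM, in M2 at 23.6 and 24.2, in M3 at 81.4 and 64.9 and in M4 at 86.0 and 76.6. M1, M2 and M3 followed each other without overlap, whereas M3 and M4 overlapped. The log2 fold change of M2, M3 and M4 over M1 was 1.28 ± 0.17, 2.89 ± 0.18 and 3.04 ± 0.18. The difference between M4 and M3 was 0.15 ± 0.17. PLAUR had the smallest standard errors of the 4 genes. The receptor and its ligand thus did not move in step: PLAUR was already high in M3, where PLAU lay inside the range of M1, and PLAU differed between M3 and M4, where PLAUR differed by less than the spread between replicates.

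SERPINE2 (ENSG00000135919) lies on the minus strand at chr2:224839762-224904035 (GRCh37), with 9 exons in its canonical transcript. It was measured in M1 at 7.25 and 17.7 CPM, in M2 at 264 and 264, in M3 at 153 and 576 and in M4 at 69.6 and 88.0. All libraries of M2, M3 and M4 were above both of M1, the nearest of them, in M4, by 3.93-fold. M4 stood between M1 and M2 without overlap, and M2 lay within the range of M3. The log2 fold change of M2, M3 and M4 over M1 was 4.40 ± 0.69, 4.87 ± 0.71 and 2.66 ± 0.64. M4 was below M2 and M3 in every library, with log2 fold changes of -1.74 ± 0.62 and -2.21 ± 0.63. Neither met the criteria for a call, though they did so in 5 and 6 of 14 alternatives. By RPKM the gene was at the 49.3 and 66.0 percentile in M1 and at the 96.4 and 96.5 percentile in M2. The change from M1 to M2 rests on the labels of those libraries. With M1 replicate 2 and M2 replicate 1 exchanged, it became 0.05, and that of M4 over M1 became -0.78.

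Per length, SERPINE2 exceeded the urokinase transcript in M2 and M3 and was below it in M1 and M4. The ratio of SERPINE2 to PLAU by RPKM was 0.442 and 0.387 for M1, 6.57 and 6.94 for M2, 5.02 and 19.995 for M3, and 0.338 and 0.487 for M4. The libraries of M4 lay around those of M1, although both genes were higher in M4 than in M1. Against the sum of PLAU and PLAT, the ratio was 0.124 and 0.0718 for M1, 1.82 and 1.84 for M2, 0.652 and 1.12 for M3, and 0.316 and 0.418 for M4. On this scale M4 was above M1 and below M2 and M3 in both replicates.

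**Figure D3:**
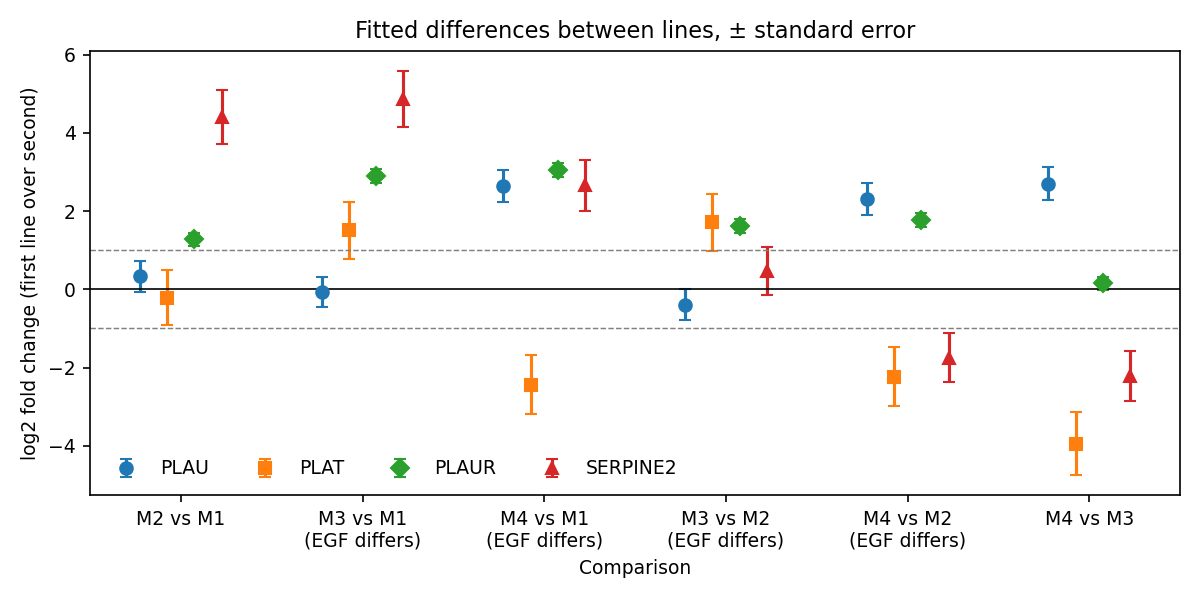
Fitted log2 fold change (first line over second) with its standard error for the 4 genes in the 6 comparisons of lines; dashed lines mark a change of 1 log2 unit, and EGF differs in the comparisons so marked. PLAUR and SERPINE2 were higher in M2 than in M1, and PLAU and PLAT differed in opposite directions in M4 against M3.

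A gene was called when its edgeR quasi-likelihood test gave a Benjamini-Hochberg adjusted p under 0.05 over all 18431 genes tested and its log2 fold change exceeded 1 in size. All 4 genes were tested in every comparison. In M2 against M1, 2 of the 4 were called, PLAUR and SERPINE2, both higher, where 3.37% of all genes tested were called. In M3 against M1 the same 2 were called, both higher (13.5% of all genes), and in M4 against M1 all 4 were called, PLAT as lower (20.7%). In M3 against M2, 1 was called, PLAUR as higher (4.15% of all genes, 2.95% as higher and 1.2% as lower). In M4 against M2 the called genes were 2, PLAU and PLAUR, both higher (13.9%, 6.98% as higher and 6.94% as lower), and in M4 against M3 they were 2, PLAU as higher and PLAT as lower (10.3%, 3.99% as higher and 6.3% as lower). The library values of the 2 lines did not overlap for 2, 3, 4, 3, 4 and 3 of the 4 genes in these comparisons, in the order given, and for 61.0%, 59.4%, 67.3%, 59.0%, 73.0% and 60.2% of all genes tested. Since the genes were chosen with these contrasts known, nothing is read from their counts beside these shares. Comparisons with the same line share its libraries and are not independent of each other.

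The calls differed in how far they rested on single libraries. PLAU and PLAUR in M4 against M1 were called under all 14 alternatives computed, with log2 fold changes of 2.09 to 3.56 for PLAU, the highest without M1 replicate 2, and 2.33 to 3.21 for PLAUR. PLAT in M4 against M1 lost its call in 9 of the 14, over a range of -3.15 to -0.91, which included leaving out M1 replicate 2 (-0.91) or any 1 library of M2, M3 or M4. In M4 against M3, PLAT lost it without any 1 library of M2 or M4 or without M3 replicate 2 (-3.19), and PLAU without M3 replicate 1 (2.74). PLAU in M4 against M2 and PLAUR in M3 against M2 lost theirs without either library of M2. SERPINE2 in M4 against M1 lost its call without M1 replicate 1 (2.17) or any 1 library of M2 or M4. Calls of PLAUR and SERPINE2 in M2 against M1 were lost when either library of M2 was left out, where edgeR called 2 genes in all without M2 replicate 1 and 0 without M2 replicate 2 (2251 at an unadjusted p under 0.05). They were also lost under the exchanged assignment, where PLAUR had a log2 fold change of 0.11, and that of SERPINE2 was lost without M1 replicate 1 (3.89). That assignment also ended the calls of PLAUR (2.17) and SERPINE2 (1.43) in M3 against M1. It ended those of PLAUR in M3 against M2 (2.06) and PLAT in M4 against M1 (-1.71) as well. Calls were also gained, by PLAU in M2 against M1 without M1 replicate 2 (1.25). PLAT gained one in 2 alternatives in M3 against M1, 1 in M3 against M2 and 7 in M4 against M2. SERPINE2 did in 5 alternatives in M4 against M2 and 6 in M4 against M3.

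Around these genes, 53 others were followed in 7 lists, and 45 of them had counts enough to be tested. They include 8 genes of AP-1 and ETS factors and 8 Ly6 relatives of PLAUR, which are not parts of the plasminogen system. Of the higher calls below, these gave 4 and 1 in M3 and 5 and 1 in M4. Of the lower calls they gave 0 and 1 in M3 and 1 and 3 in M4. The lists were chosen with earlier results of these data known. Nothing is therefore read from their counts or medians beside those of all genes. In M2 against M1, 4 of the 45 were higher and 1 lower, with a median log2 fold change of 0.27 against -0.04 over all genes. Of all genes, 2.26% were called higher and 1.11% lower. In M3 against M1, 14 were higher and 1 lower, with a median of 0.53 against -0.02, where 8.02% of all genes were called higher and 5.51% lower. In M4 against M1, 13 were higher and 8 lower, with a median of 0.33 against -0.02, where 9.48% were called higher and 11.2% lower. Under the exchanged assignment, the numbers called in these comparisons fell from 5 to 0, from 15 to 2 and from 21 to 10. The 5 calls in M2 against M1 were also lost without either library of M2 (11 and 10 of the 45 genes had an unadjusted edgeR p under 0.05 there).

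Plasminogen itself (PLG) had 0 counts in all 8 libraries, which allows a level of up to 0.0426 CPM in the shallowest of them and covers counting error only. Of 8 genes of plasminogen activation and activator cleavage, 4 were tested. CTSL, a lysosomal protease that can cleave pro-urokinase, was measured in M1 at 70.7 and 66.1 CPM, in M2 at 146 and 145, in M3 at 136 and 131 and in M4 at 142 and 139. It was called higher in M2 (log2 fold change 1.09 ± 0.12, edgeR adjusted p = 0.00624) and M4 (1.04 ± 0.12, 0.000978), and in M3, at 0.97 ± 0.12, it fell short of the criterion of 1. Under the exchanged assignment the changes in M2 and M4 became -0.038 and 0.37, and in M4 the call was also lost without M1 replicate 2 (0.99). F12, coagulation factor XII, fell in M4, by 1.09 ± 0.22 on the log2 scale (edgeR adjusted p = 0.00812), a call lost without M1 replicate 2 (-0.99) or M4 replicate 1 (-0.92). The proteases ST14 and CTSB were not called in any line against M1.

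Of 4 genes whose products dock plasminogen or tissue-type activator at the cell surface, 3 were called higher in M3 against M1. EGF also differs in that comparison, and 8.02% of all genes were called higher in it. ANXA2, annexin A2, was measured in M1 at 2747 and 2785 CPM, in M2 at 4875 and 4749, in M3 at 12562 and 10338 and in M4 at 6803 and 5474. Its log2 fold change over M1 was 2.05 ± 0.21 in M3 (edgeR adjusted p = 0.00116) and 1.15 ± 0.20 in M4 (0.00528). S100A10, which pairs with annexin A2 and binds plasminogen, rose in M2 by 1.33 ± 0.25 (edgeR adjusted p = 0.0266) and in M3 by 1.90 ± 0.25 (0.0028). PLGRKT, a plasminogen receptor, rose in M3 by 1.12 ± 0.18 (edgeR adjusted p = 0.00518), and ENO1 was not called in any line. The call of S100A10 in M2 held in 9 of 14 alternatives and was lost without any 1 library of M1 or M2. Under the exchanged assignment S100A10 became -0.0029 in M2 and 1.08 in M3, ANXA2 became 1.59 in M3 and 0.69 in M4, and PLGRKT became 0.64 in M3, none of them called. PLGRKT in M3 was also lost without M3 replicate 1 (0.96), and ANXA2 in M4 without M4 replicate 1 (0.99). All 4 docking genes had their highest line mean in M3, as PLAT did, although the libraries of M2 lay within the range of M3 for ENO1.

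Of 11 partners and clearance receptors of PLAUR, 10 were tested, and 1, 3 and 3 were called higher in M2, M3 and M4 against M1. Of all genes, 2.26%, 8.02% and 9.48% were called higher there. The integrin subunits ITGA3, ITGA5 and ITGB1, which form laminin and fibronectin receptors known to associate with PLAUR, made up the higher calls among the partners. ITGA3 was measured in M1 at 216 and 242 CPM, in M2 at 483 and 476, in M3 at 685 and 1074 and in M4 at 967 and 938. Its log2 fold change over M1 was 1.07 ± 0.22, 1.94 ± 0.22 and 2.05 ± 0.22 in M2, M3 and M4 (edgeR adjusted p = 0.0368, 0.00168 and 0.000773). The call in M2 held in 7 of 14 alternatives and was lost without any 1 library of M1, M2 or M4, and under the exchanged assignment the 3 values became 0.038, 1.33 and 1.44, none of them called. ITGA5 rose by 1.41 ± 0.14 in M3 and 1.89 ± 0.14 in M4, and ITGB1 by 1.11 ± 0.17 and 1.15 ± 0.17. The exchanged assignment ended these calls, with 0.80 and 1.29 for ITGA5 and 0.69 and 0.72 for ITGB1, and ITGB1 in M3 was also lost without M3 replicate 2 (0.999). MRC2, a collagen receptor that associates with urokinase and its receptor, fell in M4, by 3.17 ± 0.59 (edgeR adjusted p = 0.00722), from 52.7 and 190 CPM in M1 to 11.3 and 15.7. Leaving out M1 replicate 1 gave -3.80 and M1 replicate 2 gave -1.96, and the call was lost without M4 replicate 1 (-2.94). The clearance receptors LRP1, VLDLR and IGF2R were not called in any line against M1.

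**Figure D4:**
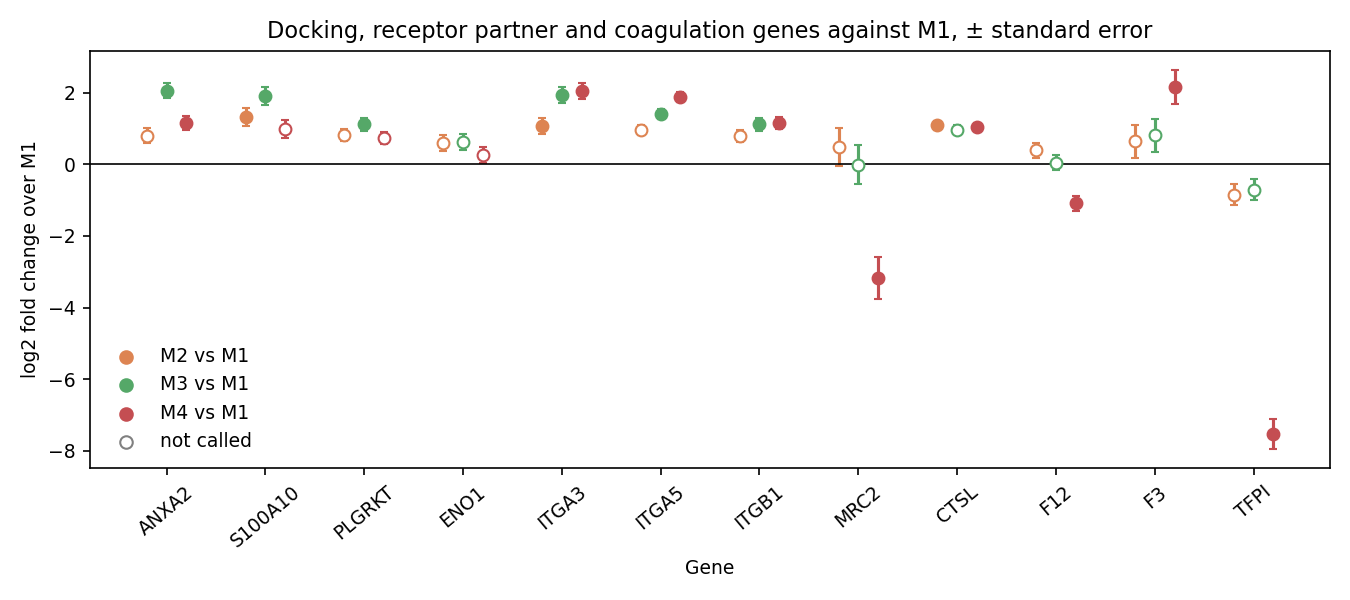
Fitted log2 fold change over M1, with its standard error, of docking, receptor partner and coagulation genes in M2, M3 and M4; open symbols did not meet the criteria for a call. ITGA3 was called higher in all 3 lines, in M2 in 7 of 14 alternatives, and MRC2, F12 and TFPI were lower in M4, at -3.17, -1.09 and -7.53.

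Of 8 further inhibitors of the activators or of plasmin, 6 were tested, and none was called in the same direction in all 3 lines. SERPINB2, plasminogen activator inhibitor-2, was measured in M1 at 1.18 and 0.134 CPM, in M2 at 0.157 and 0.185, in M3 at 3.56 and 12.3 and in M4 at 76.4 and 33.3. Both libraries of M4 were above all others, as for PLAU. Unlike that of PLAU, the change of SERPINB2 in M4 against M3, at 2.79 ± 0.88, was not called (edgeR adjusted p = 0.0707). The log2 fold change of SERPINB2 over M1 was 3.59 ± 0.96 in M3 (edgeR adjusted p = 0.0377, lost in 9 of 14 alternatives) and 6.37 ± 1.07 in M4 (0.00496, called in all 14). In M3 it was 5.88 without M1 replicate 1, and the call was lost without M1 replicate 2 (2.75), M3 replicate 2 (2.44) or any 1 library of M2 or M4 and under the exchanged assignment (3.58). In M4 it ran from 5.53 without M1 replicate 2 to 8.68 without M1 replicate 1. SERPINA5, the protein C inhibitor, was measured in M1 at 7.69 and 11.5 CPM, in M2 at 1.01 and 1.19, in M3 at 39.1 and 23.6 and in M4 at 1.75 and 2.55. It thus had its high line in M3, as PLAT did, and fell in M2 by 3.12 ± 0.36 and in M4 by 2.16 ± 0.34 (edgeR adjusted p = 0.0064 and 0.00332), but rose by 1.71 ± 0.33 in M3 (0.011). With the exchanged assignment the changes in M2, M3 and M4 became 0.55, 2.85 and -1.01, none of them called, and the call in M3 was also lost without M3 replicate 1 (1.31). SERPINI1, neuroserpin, rose in M3 by 2.44 ± 0.69 (edgeR adjusted p = 0.0424), a call held in 8 of 14 alternatives and lost without M1 replicate 1 (3.14), M1 replicate 2 (1.98), M3 replicate 2 (1.77) or either library of M2 and under the exchanged assignment (2.36). The plasmin inhibitors SERPINF2, at 3.00 to 14.9 CPM, and A2M, at 0.0967 to 0.253 CPM, and also SERPINE3, at 0.316 to 0.815 CPM, were not called against M1, and TFPI2 and CPB2 had 0 to 7 counts per library.

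**Figure D5:**
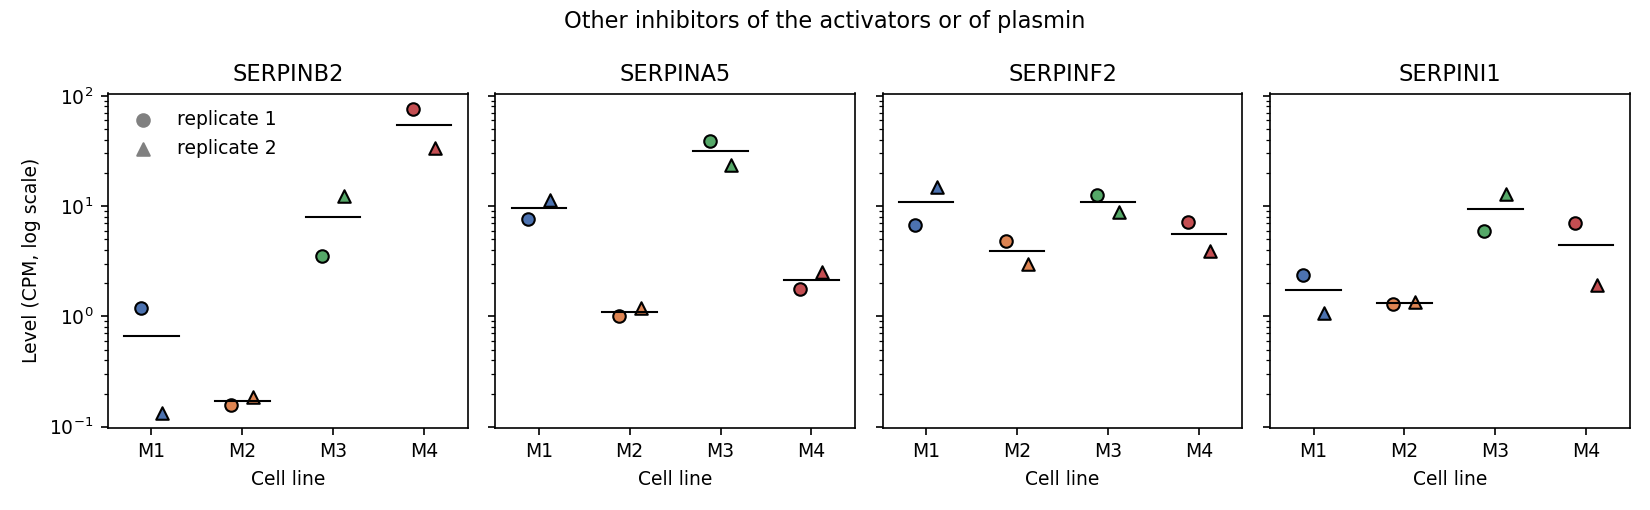
Level of SERPINB2, SERPINA5, SERPINF2 and SERPINI1 in each library (CPM, log scale) by cell line; symbols are the 2 replicates and bars the line mean. SERPINB2 reached 76.4 and 33.3 CPM in M4, and SERPINA5 was highest in M3, at 39.1 and 23.6 CPM.

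SERPINE2 also inhibits thrombin, and of 6 genes of the thrombin arm 5 were tested. F3, tissue factor, which starts coagulation, was measured at 41.3 and 34.1 CPM in M1 and 226 and 113 in M4, and rose by 2.17 ± 0.47 (edgeR adjusted p = 0.0134), a call lost without M1 replicate 2 (2.04) or M4 replicate 1 (1.59) and under the exchanged assignment (1.79). TFPI, the inhibitor of the tissue factor pathway, fell in M4 from 1361 and 1335 counts to 12 and 5, with a log2 fold change of -7.53 ± 0.42 (edgeR adjusted p = 9.62e-05). In M2 and M3 TFPI had log2 fold changes of -0.85 ± 0.30 and -0.70 ± 0.30 (edgeR adjusted p = 0.144 and 0.128), which did not pass.

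The genes most like each member were sought by Pearson's r of log2(CPM + 0.5) over the 8 libraries, among 3268 genes that reached 10 CPM in a line and spanned at least 1 log2 unit between lines. The libraries share lines and EGF, and r is a description. The nearest to PLAU were SMIM22 (r = 0.989), DHDDS (0.964) and IDS (0.960), and to PLAUR the gene ENSG00000250588 (0.996), DIAPH3 (0.994) and RPSAP52 (0.993). The nearest to PLAT were HOXA7 (r = 0.983), ASIC1 (0.982) and XYLT2 (0.980), and to SERPINE2 they were SLC43A3 (0.983), LSM6 (0.983) and WDR76 (0.976). Among the members, r was 0.577 for PLAU and PLAUR, -0.642 for PLAU and PLAT, 0.610 for PLAUR and SERPINE2, 0.426 for PLAT and SERPINE2, 0.073 for PLAU and SERPINE2 and -0.101 for PLAUR and PLAT. No member was among the 3 nearest genes of another.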

How the data were processed

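Poly A+ RNA-seq libraries of the 4 lines, 2 biological replicates each, were analysed. From paired-end reads the authors, using Trimmomatic for trimming, made alignments with STAR to hg19 and expected counts per gene with RSEM on GENCODE v19; tool versions and the use of strand are not given in the sources used here. The deposited expected counts are not normalized, 12.8% are not whole, and they were rounded. Totals ran from 69669970 to 107350344. Lines and replicates were taken from the labels.

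All 8 libraries were fitted with 1 coefficient per line in edgeR 4.0.16 (R 4.3.3; TMM, filterByExpr, robust quasi-likelihood F test) and adjusted by Benjamini-Hochberg over 18431 genes. Standard errors are those implied by F. With 2 cultures of 1 line per group, p-values measure the spread between these samples. The fit was tested on simulated data. CPM used TMM-scaled totals, and RPKM the canonical transcript of GENCODE release 44 on GRCh37, which held 94.7% of the genes that had a count. The rest was done in Python 3.11.15 (matplotlib 3.10.9, numpy 2.4.6, pandas 2.3.3, scipy 1.17.1).

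The members and the lists were chosen with earlier results of these data known, and the lists were written from general knowledge of the system. The adjusted p-values of listed genes are therefore a description as well. From each list the text names up to 4 genes with the largest change among those called against M1 with at least 100 counts in each library of the higher line, and every further inhibitor with a count; likeness names 3 genes per member. Other listed genes, LYPD1 among them, are named after their values were seen. Same-numbered samples of M3 and M4 deviated together weakly (r = 0.206), and those of the other pairs of lines did not (r from -0.0511 to 0.0170). The main edgeR fit used no pairing. A replicate block called 4 members in M4 against M2 and 3 in M4 against M3, where the main fit called 2 and 2. The alternatives were DESeq2 1.42.0, other size factors, no filter, a replicate block, a fit of the 2 lines compared, the exchanged assignment and leaving out each library. A result for 1 further gene of this system is not reported here.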

Additional observations from a re-analysis of the deposited data

How the results depend on the processing

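There were 336 values, from 14 alternatives and 24 changes of the 4 genes. Of these, 279 kept their call status, 34 lost the call, 22 gained it, and 1 turned and lost it. Values that changed sign without a call in either fit are among the 279. PLAT in M2 against M1, at -0.21 in the main edgeR fit, ran from -0.94 to 1.32 and counted as kept in all 14. Under the assignment in which M1 replicate 2 and M2 replicate 1 are exchanged, SERPINE2 in M4 against M1 became -0.78, SERPINA5 in M2 against M1 became 0.55 and S100A10 and CTSL became -0.0029 and -0.038. The members called became 0 in M2 against M1, 0 in M3 against M1, 2 in M4 against M1 and 0 in M3 against M2. Other listed genes called became 0, 2, 10 and 1 in these comparisons and 5 in M4 against M3, and all genes called became 0, 219, 1559, 214 and 830. At an unadjusted edgeR p under 0.05, 0, 2 and 1 members passed in the 3 comparisons without a call, and in M2 against M1 2 of the 45 other genes and 315 of all genes did; DESeq2 was not run with that assignment. DESeq2, run with the labelled assignment, and the fit without a filter covered 52 other genes and 29419 genes in all. The main edgeR fit covered 45 and 18431. DESeq2 called 8 and 13 other genes, and 1324 and 1480 of all genes, in M2 against M1 and M3 against M2. Without a filter, 11, 15, 16 and 14 other genes were called in M2 against M1, M3 against M2, M4 against M2 and M4 against M3. Of all genes, 1788, 1880, 3482 and 2916 were called in these comparisons. Members called were 2 in M3 against M2 and 4 in M4 against M2. With the replicate block 4 members and 2462 of all genes were called in M4 against M2. The fit of those 2 lines alone called 4 members and 3101 of 17349 genes there. The block moved no other count of members or of other listed genes by over 1.5 times. The fit of 2 lines called 1659 genes in M3 against M1.

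Leaving out each library gave 0 to 3, 2 to 3, 2 to 3, 0 to 1, 1 to 3 and 1 to 3 members called in M2, M3 and M4 against M1, M3 and M4 against M2 and M4 against M3, with 0 to 7, 11 to 15, 14 to 21, 1 to 11, 7 to 12 and 2 to 12 other genes, and 0 to 876, 1752 to 2298, 2425 to 3742, 83 to 1073, 927 to 2834 and 598 to 2197 of all genes. The lone library left in a line is assumed to vary as the other lines do. Without M2 replicate 1 or M2 replicate 2, edgeR called 0 members in M2 against M1 and in M3 against M2, where 2 and 1 passed at an unadjusted p under 0.05; of the other 45 genes 11 and 10 passed so in M2 against M1, and without replicate 2 2251 of all genes did. DESeq2 was not run without these libraries. The cause of these shifts was not tested. With 2 replicates a line, no sample could be tested as standing apart.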

Other observations

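Genes of AP-1 and ETS factors, whose motifs are marked in the PLAU and PLAUR sequences, differed between the lines. Of 8 listed, all were tested, and 1, 4 and 5 were called higher in M2, M3 and M4 against M1, with 1 lower in M4. Of all genes, 2.26%, 8.02% and 9.48% were called higher there, and 11.2% lower in M4. In M4 against M3, at the same EGF, ETS1 (1.40 ± 0.26) and JUN (1.39 ± 0.21) were called higher. These calls held in 11 and 13 of 14 alternatives. FOS, not called against M1, was lower in M4 than in M3 (-1.89 ± 0.47, edgeR adjusted p = 0.0355) and than in M2 (-1.67 ± 0.47, edgeR adjusted p = 0.0422). FOSL1, an AP-1 subunit, was measured in M1 at 10.6 and 15.4 CPM, in M2 at 31.0 and 31.3, in M3 at 76.2 and 86.6 and in M4 at 167 and 158. Its log2 fold change over M1 was 1.26 ± 0.19, 2.65 ± 0.20 and 3.65 ± 0.20 (edgeR adjusted p = 0.013, 0.000425 and 9.62e-05). The call in M2 was lost without either library of M2, and the exchanged assignment ended the calls in M2 (0.17) and M3 (1.97). ETS1 rose by 1.23 ± 0.26 in M3 and by 2.63 ± 0.27 in M4 (edgeR adjusted p = 0.0142 and 0.000588), JUN by 1.92 ± 0.21 in M4 (0.000844), and ETV5 by 2.16 ± 0.33 in M3 (0.00458) and by 1.10 ± 0.32 in M4 (0.0328). ETV5 in M4 held its call in 8 of 14 alternatives and lost it without M1 replicate 1 (0.77), M4 replicate 2 (0.82) or either library of M2, in the fit of the 2 lines alone and under the exchanged assignment (1.17), and ETS1 in M3 lost it without M1 replicate 1 (0.90) or M3 replicate 1 (0.996) and in the fit of the 2 lines alone. ETV4 was also called higher in M3 and M4, and ETS2 fell in M4. Whether these factors bear on PLAU or PLAUR was not tested.

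Relatives of PLAUR in the Ly6 family, whose products share its fold, were called in both directions. Of 8 tested, 1 was higher and 1 lower in M3, and 1 higher and 3 lower in M4, against M1. Of all genes, 8.02% were called higher and 5.51% lower in M3, and 9.48% higher and 11.2% lower in M4. LY6D, a surface protein of squamous epithelium, was measured at 41.5 and 3.403 CPM in M1 and at 2.20 CPM or less in every other library, and fell by 6.37 ± 1.24 in M3 and 5.03 ± 1.14 in M4 on the log2 scale (edgeR adjusted p = 0.0128 and 0.0156). Without M1 replicate 1 these changes were -3.65 and -2.29, and the calls held in 11 and 10 of 14 alternatives, being lost without M3 replicate 2 (-5.74) in M3, without either library of M4 in M4, in the fit of the 2 lines alone and under the exchanged assignment (-6.32 and -4.98). LYPD5 rose by 3.88 ± 0.46 in M3 (edgeR adjusted p = 0.00184) and by 1.44 ± 0.44 in M4 (0.0389), the latter held in 3 of 14 alternatives (0.51 to 1.65); the former was lost under the exchanged assignment (2.95). LY6E fell by 1.15 ± 0.23 in M4 (edgeR adjusted p = 0.00793), a call lost without M1 replicate 2 (-0.77) or M4 replicate 1 (-1.01) and under the exchanged assignment (-0.89). LYPD1 had 62 and 52 counts in the M1 libraries and 0 in both of M4.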
